A study of Mus musculus with 4 samples.

Results

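The genes described here encode the factors that shorten the poly(A) tail of messenger RNA, remove its cap and degrade its body. They are 40 named genes, taken by symbol from 37311 gene identifiers: 15 of deadenylation, 11 of decapping and 5′ to 3′ decay, and 14 of the exosome and its Ski partners. Of these, 39 were found in the count tables and all 39 passed the filter on low counts; Exosc6 was not analysed here. The cells were J1 mouse embryonic stem cells (strain 129S4/SvJae), grown without feeder cells in serum and leukaemia inhibitory factor and transduced with short hairpin RNAs that target eIF4A3, a helicase at the core of the exon junction complex. All 4 libraries came from such knockdown cells (eIF4A3 KD), selected with 1 µg/mL puromycin for 3 days, harvested on day 4.5 and treated with 0.1 mg/mL cycloheximide, which holds ribosomes on RNA, for 1 min before lysis. From these cells, 2 libraries held ribosome protected fragments (RPF) and 2 held total RNA, labelled as biological replicates 1 and 2. The labels name 2 hairpins; which of them each replicate received is not given in the sources used here. Unperturbed control cells are not analysed here, so each value below compares footprints with total RNA inside knockdown cells and none measures an effect of eIF4A3.

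Most messenger RNA is degraded after its poly(A) tail has been shortened. The PAN2-PAN3 pair and the CCR4-NOT complex do this, the latter with one nuclease of the Ccr4 type (CNOT6 or CNOT6L) and one of the Caf1 type (CNOT7 or CNOT8) on the scaffold CNOT1. The shortened RNA is then either decapped by DCP2 and degraded from its 5′ end by XRN1, or degraded from its 3′ end by the exosome, a ring of EXOSC proteins that carries the nuclease DIS3 and, in the nucleus, EXOSC10. The exon junction complex is linked to these enzymes through nonsense-mediated decay, in which it marks transcripts that stop translation too early.

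Gene counts came to 7615277 to 9434987 in the RPF libraries and 8218020 to 8969965 in the total RNA libraries, and the common biological coefficient of variation was 0.172. The 8 stem cell markers listed, among them Pou5f1, Sox2, Nanog and Zfp42, summed to 3813 and 4203 CPM (reads per 1000000 counted, with library sizes adjusted by the trimmed mean of M-values, TMM) in total RNA. Fibroblast markers summed to 10.7 and 10.9 CPM over 8 genes, with Dcn at 0 counts in all 4 libraries. Primitive endoderm markers summed to 27.9 to 34.5 CPM over 6 genes, and trophectoderm markers to 34.5 to 41.0 CPM over 6 genes. Eif4a3, the targeted gene, stood at 203 ± 13.3 against 110.5 ± 13.9 CPM (RPF against total RNA; SD, n = 2 libraries per fraction).

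The log2 of RPF over total RNA, called the ratio below and given ± its standard error (SE), asks how many footprints a gene has for its total RNA relative to other genes. The 3 groups differed in how their members fell. Exosome genes mostly had more footprints for their RNA, with a higher ratio in 9 of 13 measured members, a lower one in 1 and a median of 0.79. Deadenylation genes had a lower ratio in 5 of 15, a higher one in 1 and a median of -0.19. Decapping genes went both ways, with 3 of 11 higher, 4 lower and a median of 0.15. Over the 39 members 13 were higher and 10 lower. Over all 13809 genes tested 20.5% were higher and 21.2% lower (41.7% called in either direction), with a median of -0.024; calls are at an adjusted p (Benjamini-Hochberg over all genes, edgeR quasi-likelihood test) under 0.05. No test of one group against another was made, and the medians describe these libraries. For the level of a gene in such bulk samples, as distinct from its ratio, fewer cells with a transcript and less of it per cell cannot be told apart. Over the 4 pairings of an RPF with a total RNA library the medians ran from 0.61 to 0.96 for exosome, from -0.45 to -0.18 for deadenylation and from -0.10 to 0.15 for decapping genes.

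The counts rest on scaling. With library size only in place of TMM the all-gene median was -0.46 rather than -0.024, 19.8% of all calls were higher in place of 49.2%, and the members had 6 higher and 15 lower in place of 13 and 10. Relative to the median of all genes the exosome median then lay at 0.81 (0.82 with TMM), the deadenylation median at -0.16 (-0.17) and the decapping median at 0.18 (0.17). Footprints lie on coding sequence, while total RNA reads also cover untranslated regions, so where whole exons are counted the ratio can depend on how much of a transcript is coding. Values after a correction for coding share (the share of the principal GENCODE transcript that is coding sequence) are therefore given beside the results. Of the 23 called members, 21 were also called after this correction; the exosome median became 0.68, the deadenylation median -0.17 and the decapping median 0.068, against -0.0036 over all genes. Tested against a fold of 1.5 (glmTreat), 11 of the 23 were called: Cnot3, Cnot6, Cnot6l, Cnot7, Pan3, Dcp2, Dcps, Exosc4, Exosc7, Exosc8 and Exosc10.

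**Figure D1:**
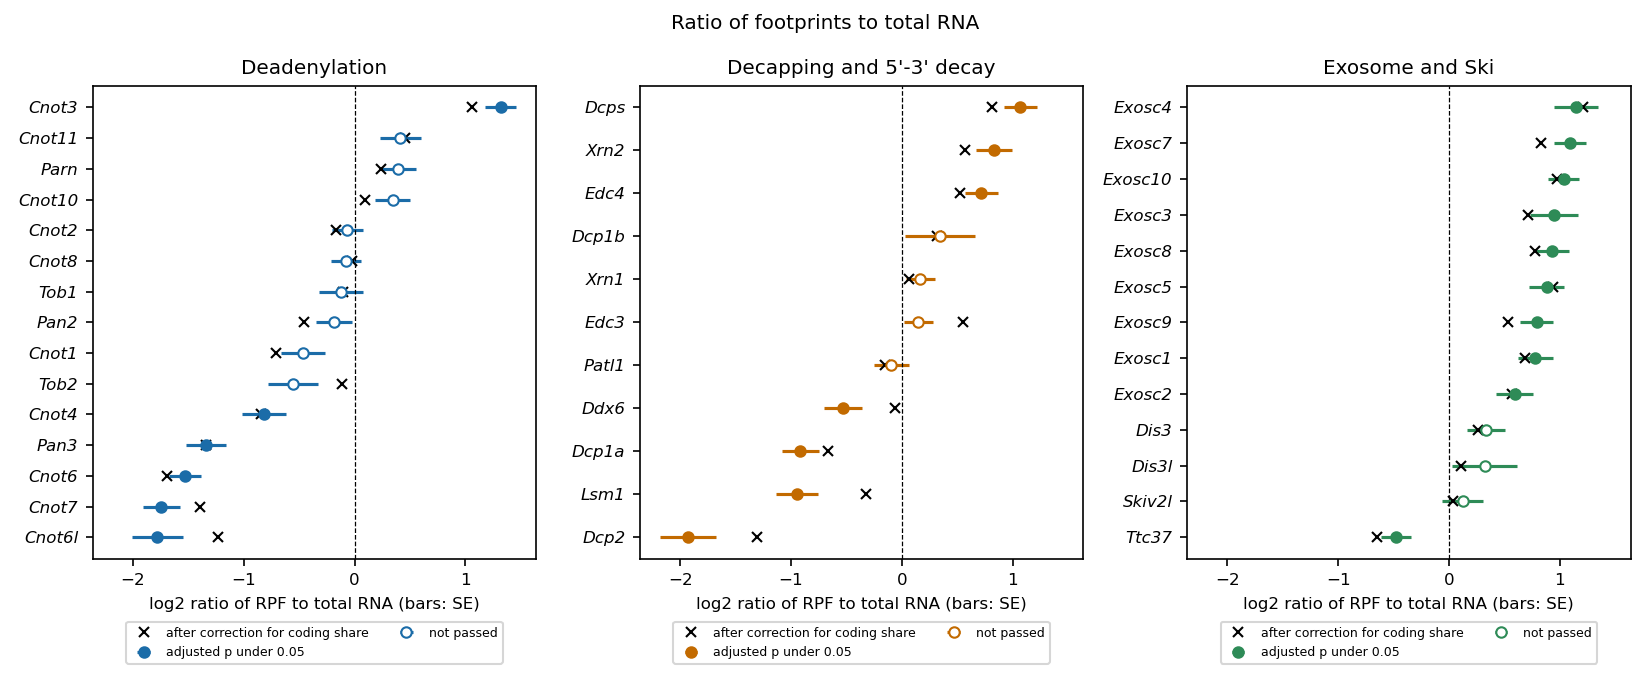
Log2 of RPF over total RNA for the 39 measured members in 3 panels, ordered by ratio; circles with bars are the ratio and its SE, filled where the adjusted p was under 0.05, and crosses are the ratio after correction for coding share. Exosc genes sit between 0.59 and 1.14, while Cnot6l, Cnot7, Cnot6 and Pan3 sit below -1.

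Among the deadenylation genes, 3 of the 4 nucleases of CCR4-NOT had the lowest ratios before correction for coding share. After it, Pan3 (-1.34) lay below Cnot6l (-1.23). Cnot7 (ENSMUSG00000031601.10), a Caf1-type nuclease, had 230 and 199 counts in RPF and 881 and 1074 in total RNA (replicate 1 first throughout), or 29.4 ± 0.512 against 98.6 ± 17.4 CPM. Both RPF values lay far below both total RNA values, and the ratio was lower (-1.75 ± 0.17, adjusted p = 0.000779; after correction -1.39, adjusted p = 0.00153). Cnot6 (ENSMUSG00000020362.7), a Ccr4-type nuclease, had 257 and 266 counts in RPF and 1030 and 1035 in total RNA, or 36.0 ± 3.93 against 104 ± 4.22 CPM (-1.53 ± 0.15, adjusted p = 0.000776; after correction -1.70, adjusted p = 0.00071). Its paralog Cnot6l (ENSMUSG00000034724.11) was the least abundant of the 4, with 51 and 48 counts in RPF and 222 and 242 in total RNA (-1.78 ± 0.23, adjusted p = 0.00168; after correction -1.23, adjusted p = 0.00626). For both Ccr4-type genes the fractions did not overlap. Cnot8 (ENSMUSG00000020515.7), the other Caf1-type nuclease, had 589 and 586 counts in RPF and 859 and 840 in total RNA, its fractions overlapped, and its ratio did not pass (-0.08 ± 0.13, adjusted p = 0.662).

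The sequences around the start codons of the 4 nucleases are shown because 3 of the 4 have so few footprints for their RNA; beneath them stand Cnot3, the deadenylation gene with the highest ratio, and the 3 exosome genes with the highest ratios, a choice made after the ratios were seen. Each gives the last 9 bases of the 5′ leader, the start codon in capitals and the base after it, from the principal transcript in GENCODE M21 (GRCm38).
Cnot6: tcgagaggcATGc
Cnot6l: ctaatagggATGc
Cnot7: gctgtcactATGc
Cnot8: gccttcaggATGc
Cnot3: gcagggaagATGg
Exosc4: ctgtacatcATGg
Exosc7: ctgagcagcATGg
Exosc10: gacggaaaaATGg
Initiation is known to be favoured by a purine at the third base before the start codon and by a G directly after it. All 8 sequences carry a purine there. After the start codon the 4 nucleases carry a C, and the other 4 genes carry a G. Over the 15 deadenylation genes, 4 had a G and 7 a C after the start codon, against 8 and 0 of 11 decapping genes and 8 and 2 of 13 exosome genes. Over 12351 tested coding genes with such a context 53.3% had a G and 14.0% a C. Cnot6 with Cnot6l and Cnot7 with Cnot8 are paralogs, so these are not 4 separate cases. The ratio of Cnot8 did not pass, nor did those of the other members with a C, Cnot11, Tob1, Tob2, Dis3 and Dis3l. Of the other lower genes, Dcp1a and Dcp2 carry a G, Pan3, Ddx6 and Lsm1 an A, and Cnot4 and Ttc37 a T. Whether the start context bears on the ratios was not tested.

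The PAN2-PAN3 pair was split. Pan3, the subunit that brings PAN2 to the poly(A) binding protein, had 188 and 223 counts in RPF and 695 and 735 in total RNA, with no overlap and a lower ratio (-1.34 ± 0.18, adjusted p = 0.002; after correction -1.34, adjusted p = 0.00222). Pan2, the nuclease of the pair, had 438 and 458 counts in RPF and 644 and 752 in total RNA, its fractions overlapped, and its ratio did not pass (-0.19 ± 0.16, adjusted p = 0.386). Parn, a poly(A)-specific ribonuclease outside both complexes, had 347 and 283 counts in RPF and 353 and 300 in total RNA and did not pass (0.39 ± 0.16, adjusted p = 0.0811), although both of its RPF values lay above both total RNA values in CPM. Cnot4, a ubiquitin ligase that binds CCR4-NOT, was lower (-0.82 ± 0.20, adjusted p = 0.0153, 21.3 ± 2.36 against 37.8 ± 6.59 CPM), a call that was lost without total RNA replicate 2 (-0.63, adjusted p = 0.128).

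The scaffold and regulatory subunits of CCR4-NOT covered a wide range of ratios. Cnot3 (ENSMUSG00000035632.10), a regulatory subunit, had 1422 and 1393 counts in RPF and 818 and 729 in total RNA, or 193 ± 13.6 against 77.7 ± 3.43 CPM, and was the 1 deadenylation gene with a higher ratio (1.32 ± 0.14, adjusted p = 0.00102; after correction 1.06, adjusted p = 0.00206). A predicted gene, Gm9207, holds 26.6% of the 28-base stretches of Cnot3, so part of its reads may not have been counted. Cnot1, the scaffold, was the most abundant member of all at 527 ± 90.0 against 728 ± 87.3 CPM; its ratio did not pass (-0.47 ± 0.20, adjusted p = 0.0952) but was called lower after correction (-0.71, adjusted p = 0.0263). Cnot2 (-0.067 ± 0.14, adjusted p = 0.728), the partner of CNOT3, did not pass. Neither did Cnot10 (0.34 ± 0.16, adjusted p = 0.122) or Cnot11 (0.41 ± 0.18, adjusted p = 0.112), which form a module at the other end of CNOT1. Cnot11 had 532 and 572 counts in RPF and 502 and 632 in total RNA. Tob1 and Tob2, antiproliferative adaptors that link CCR4-NOT to the poly(A) binding protein, stood at -0.12 ± 0.20 and -0.56 ± 0.22 (adjusted p = 0.656 and 0.0855). With library size only the ratios of Cnot10 (-0.093), Cnot11 (-0.017) and Parn (-0.038) turned negative, and Cnot1 (-0.90), Cnot2 (-0.50), Cnot8 (-0.51), Tob2 (-0.98) and Pan2 (-0.62) were called lower.

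**Figure D2:**
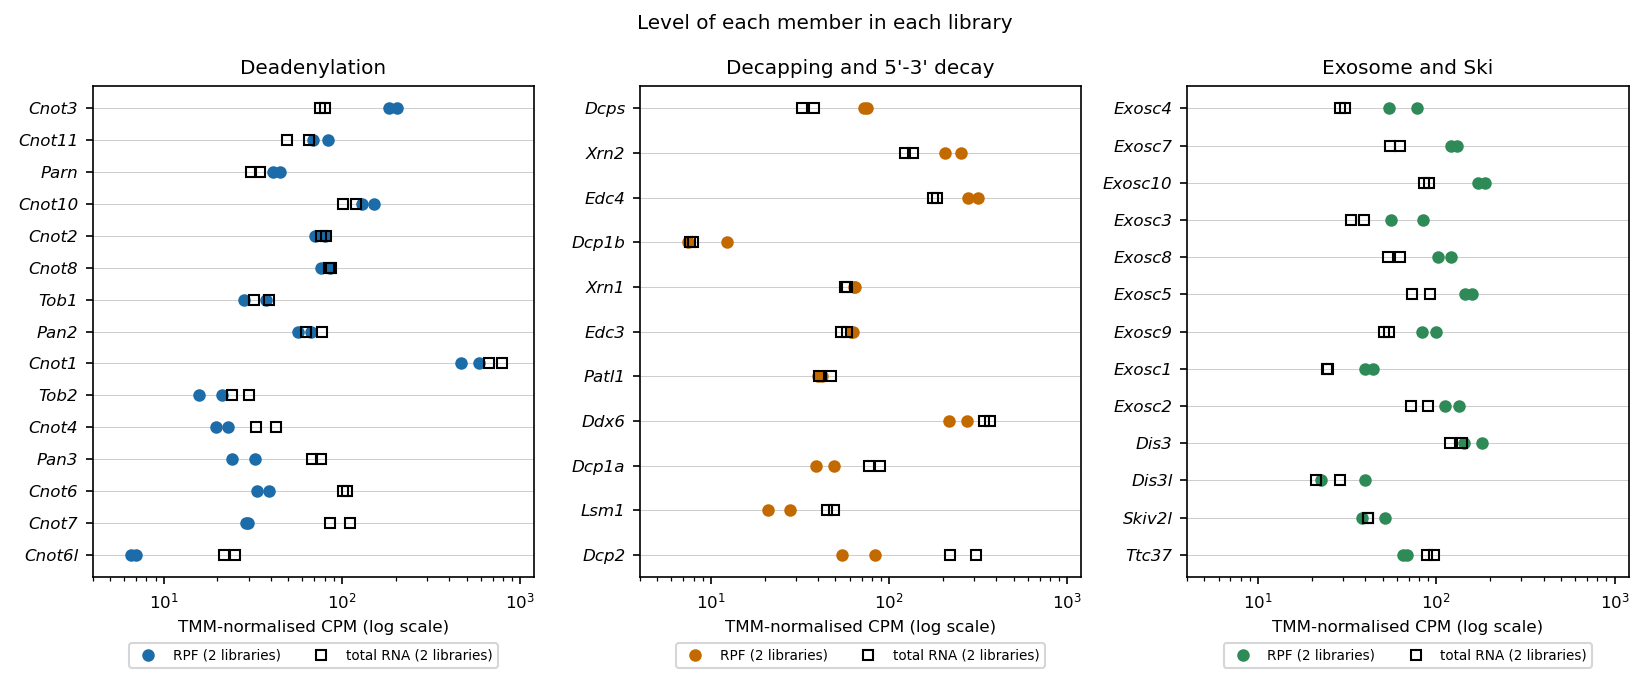
TMM-normalised CPM on a log axis for each measured member in each of the 4 libraries; filled circles are the 2 RPF libraries and open squares the 2 total RNA libraries, with genes ordered by ratio in each panel. Circles lie right of squares for the Exosc genes, and left of them for Cnot6, Cnot6l, Cnot7, Pan3 and Dcp2.

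In the decapping group the catalytic subunit had the lowest ratio of all 39 members before correction for coding share. Dcp2 (ENSMUSG00000024472.8), which hydrolyses the cap, had 423 and 571 counts in RPF and 2248 and 2959 in total RNA, or 69.0 ± 20.2 against 263 ± 60.3 CPM. Both RPF values lay well below both total RNA values, and the ratio was lower (-1.93 ± 0.25, adjusted p = 0.00171). Of its principal transcript 14.7% is coding, the smallest share among the members, and after correction the ratio was -1.30, adjusted p = 0.00669. By corrected ratios Cnot6 (-1.70), Cnot7 (-1.39) and Pan3 (-1.34) lay below Dcp2. Dcp1a, an activator of DCP2, had 300 and 335 counts in RPF and 784 and 859 in total RNA and was lower (-0.92 ± 0.17, adjusted p = 0.00533; after correction -0.66, adjusted p = 0.0187). Its paralog Dcp1b was scarce, at 9.86 ± 3.43 against 7.79 ± 0.219 CPM, and did not pass (0.34 ± 0.31, adjusted p = 0.411).

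The activators that bind around DCP2 differed among themselves. Edc4, the scaffold of the decapping complex, had 2441 and 1891 counts in RPF and 1791 and 1792 in total RNA and was higher (0.71 ± 0.15, adjusted p = 0.00886; after correction 0.53, adjusted p = 0.0288). Lsm1, the subunit that sets the cytoplasmic LSM ring apart from the nuclear one, had 161 and 191 counts in RPF and 498 and 434 in total RNA and was lower (-0.94 ± 0.19, adjusted p = 0.00775). Ddx6, a helicase of P-bodies, was lower too (-0.53 ± 0.17, adjusted p = 0.0441, 246 ± 40.9 against 355 ± 20.5 CPM). Both calls were lost after correction (Lsm1 -0.32, adjusted p = 0.214; Ddx6 -0.066, adjusted p = 0.784), with coding shares of 15.0% and 23.9%. Edc3 (0.15 ± 0.13, adjusted p = 0.401), an enhancer of decapping, did not pass but was called higher after correction (0.55, adjusted p = 0.0169), and Patl1 (-0.10 ± 0.16, adjusted p = 0.654), which joins the LSM ring to DDX6, did not pass. Edc4 was not called without total RNA replicate 1 (adjusted p = 0.0888) or total RNA replicate 2 (0.0589), nor with library size only (0.28, 0.144). Ddx6 was not called without RPF replicate 2 (-0.35, adjusted p = 0.2), total RNA replicate 1 (-0.47, 0.232) or total RNA replicate 2 (-0.59, 0.136), nor with DESeq2 size factors (0.0551).

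The enzymes that act on decapped or capped remnants also differed. Dcps (ENSMUSG00000032040.9), which hydrolyses the cap left after decay from the 3′ end, had 580 and 498 counts in RPF and 386 and 315 in total RNA, or 73.8 ± 1.69 against 35.2 ± 3.74 CPM, the highest ratio of the group (1.07 ± 0.15, adjusted p = 0.00207; after correction 0.81, adjusted p = 0.00568). Xrn2, the nuclear 5′ to 3′ exonuclease, had 1967 and 1414 counts in RPF and 1397 and 1184 in total RNA and was higher (0.83 ± 0.16, adjusted p = 0.00701; after correction 0.57, adjusted p = 0.0289), though not without total RNA replicate 2 (adjusted p = 0.0534). Xrn1, its cytoplasmic relative, had 500 and 438 counts in RPF and 576 and 564 in total RNA, and its ratio did not pass (0.17 ± 0.13, adjusted p = 0.341). With library size only Xrn2 (0.39, adjusted p = 0.0615) was not called either, and the ratios of Xrn1 (-0.27) and Edc3 (-0.28) turned negative.

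The 8 measured subunits of the exosome ring all had a higher ratio. The ring is built of 6 subunits related to RNase PH, of which Exosc4, Exosc5, Exosc7, Exosc8 and Exosc9 were measured, and a cap of Exosc1, Exosc2 and Exosc3. Exosc4 (ENSMUSG00000034259.7) had 600 and 373 counts in RPF and 316 and 279 in total RNA, or 66.0 ± 16.4 against 29.9 ± 1.52 CPM, the highest ratio of the group (1.14 ± 0.20, adjusted p = 0.0046; after correction 1.21, adjusted p = 0.00412). Exosc7 (ENSMUSG00000025785.4) had 1012 and 827 counts in RPF and 641 and 535 in total RNA, or 126 ± 7.27 against 59.0 ± 5.33 CPM (1.09 ± 0.14, adjusted p = 0.00171; after correction 0.83, adjusted p = 0.00453). In both genes the RPF values lay above the total RNA values without overlap. The other ring subunits were Exosc8 (0.93 ± 0.16), Exosc5 (0.88 ± 0.16) and Exosc9 (0.79 ± 0.15), and the cap subunits were Exosc3 (0.95 ± 0.22), Exosc1 (0.78 ± 0.16) and Exosc2 (0.59 ± 0.17), with adjusted p from 0.00405 to 0.0288. Their RPF and total RNA libraries did not overlap in any of these 6 genes. The share of all tested genes without overlap was not counted, so this only describes the values. Every ring and cap call was also made after correction for coding share (ratios from 0.53 to 1.21). Without total RNA replicate 2, Exosc1 (adjusted p = 0.0521) and Exosc2 (0.44, adjusted p = 0.23) were not called, and with library size only Exosc1, Exosc2, Exosc3, Exosc5 and Exosc9 were not (ratios from 0.16 to 0.50).

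The catalytic subunits and the Ski genes varied more. Exosc10 (ENSMUSG00000017264.9), the nuclear 3′ to 5′ exonuclease, had 1457 and 1175 counts in RPF and 925 and 825 in total RNA, or 179.8 ± 12.1 against 87.9 ± 3.83 CPM, and was higher (1.03 ± 0.14, adjusted p = 0.00193; after correction 0.97, adjusted p = 0.00255). Dis3, the main exonuclease of the complex, had 1403 and 983 counts in RPF and 1416 and 1157 in total RNA; its RPF values exceeded its total RNA values in CPM but the ratio did not pass (0.33 ± 0.17, adjusted p = 0.155). Dis3l, its cytoplasmic paralog, had 307 and 155 counts in RPF and 294 and 205 in total RNA, with overlap (0.32 ± 0.29, adjusted p = 0.41). Skiv2l, the helicase that feeds RNA into the cytoplasmic exosome, had 401 and 263 counts in RPF and 423 and 402 in total RNA, again with overlap (0.12 ± 0.18, adjusted p = 0.618). Ttc37 (ENSMUSG00000033991.7), the scaffold of the Ski complex, had 530 and 444 counts in RPF and 986 and 862 in total RNA, or 66.6 ± 2.68 against 92.8 ± 5.35 CPM, and was the 1 lower gene of the group (-0.48 ± 0.13, adjusted p = 0.0261; after correction -0.65, adjusted p = 0.00902). The call of Ttc37 was lost with DESeq2 (adjusted p = 0.0969) and without RPF replicate 2 (0.0722), total RNA replicate 1 (0.203) or total RNA replicate 2 (0.107). Without RPF replicate 1 the ratios of Dis3l (-0.13) and Skiv2l (-0.10) were negative, as they and Dis3 were with library size only (-0.12, -0.32 and -0.11).

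Set against lengths, the subunits of one complex can be compared with each other. RPF levels were divided by the coding length and total RNA levels by the exon length of the principal transcript, and are given below as CPM per kb (SD, n = 2). The 8 ring and cap subunits lay between 69.6 (Exosc9) and 215 (Exosc5) RPF CPM per coding kb, a 3.09-fold range around a median of 112. Their total RNA covered a 3.37-fold range, from 16.6 (Exosc4) to 56.0 (Exosc7) CPM per kb. Exosc10 (67.6 ± 4.54) and Dis3 (56.5 ± 9.37) stood at or just below the lower end of the ring in RPF, while Dis3l (9.86 ± 3.83), Skiv2l (12.1 ± 2.56) and Ttc37 (14.2 ± 0.572) stood several-fold lower. These 3 were also low in total RNA, at 6.98 ± 1.51, 10.5 ± 0.0133 and 13.3 ± 0.768 CPM per kb.

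The 5 scaffold and regulatory subunits of CCR4-NOT ran from 46.6 (Cnot2) to 85.9 (Cnot3) RPF CPM per coding kb, a 1.84-fold range, but from 16.4 (Cnot11) to 87.1 (Cnot1) CPM per kb in total RNA, a 5.30-fold range. The total RNA range rests on Cnot1: without it the other 4 covered 2.37-fold, up to Cnot10 at 38.9, and 1.84-fold in RPF. The difference in range was not tested. Among the nucleases Cnot8 had the most footprints (92.2 ± 7.49 per coding kb), followed by Cnot7 (34.4 ± 0.599), Cnot6 (21.7 ± 2.37) and Cnot6l (4.12 ± 0.173), neighbours in this order differing by more than their SD. In total RNA Cnot6 (41.6 ± 1.69) and Cnot8 (40.7 ± 0.873) were level within their spread. Both Cnot7 values (28.9 and 37.2, 33.0 ± 5.83) lay below theirs, and Cnot6l (2.73 ± 0.268) was far below all of them. The total RNA value of Cnot6 rests on a short principal transcript (2498 bases) and would be lower with a longer one. The median of all tested coding genes was 15.8 RPF CPM per coding kb and 8.36 total RNA CPM per kb.

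**Figure D3:**
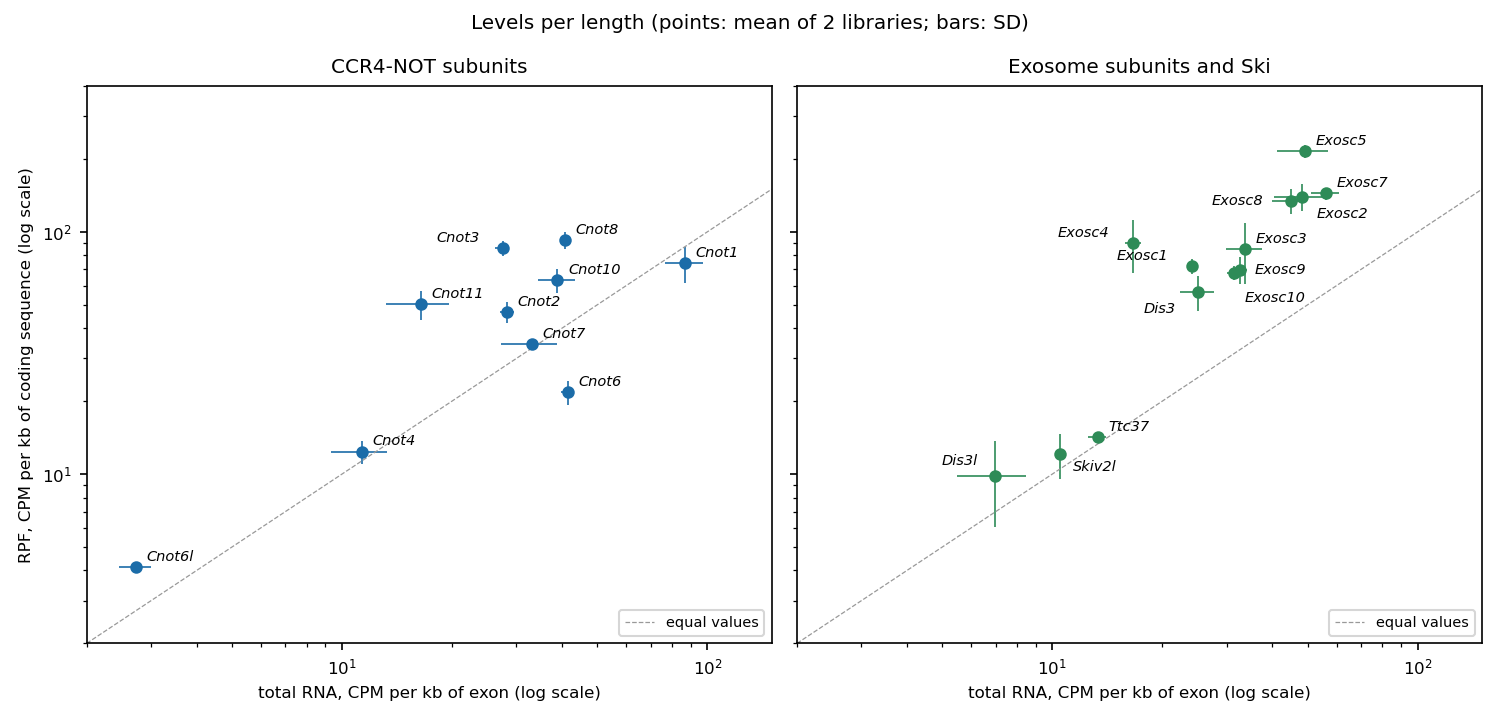
Mean RPF level per kb of coding sequence against mean total RNA level per kb of exon, both in CPM on log axes, for CCR4-NOT subunits (left) and exosome and Ski genes (right); bars are the SD of 2 libraries and the dashed line marks equal values. The 8 ring and cap subunits lie at 69.6 RPF CPM per kb or more, and Cnot1 and Cnot6 lie below the line.

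Ratios between paralogs within one library do not depend on library scaling, but they were not corrected for coding share. Coding shares were 28.7% (Cnot7) and 41.7% (Cnot8), 32.4% (Dcp1a) and 52.3% (Dcp1b), and 94.0% (Xrn1) and 83.1% (Xrn2). After correction the fitted ratios were -1.39 for Cnot7 and -0.023 for Cnot8, and -0.66 for Dcp1a and 0.32 for Dcp1b. For Xrn1 and Xrn2 they were 0.068 and 0.57. The coding share of Xrn1 rests on a principal transcript of 5499 bases, while its protein-coding transcripts together hold 10527 distinct 28-base stretches. With a longer transcript of the same coding sequence its share would be lower, and its corrected ratio would differ. Counts of Cnot7 were 0.390 and 0.340 times those of Cnot8 in RPF replicates 1 and 2 but 1.03 and 1.28 times in total RNA, a 3.14-fold shift towards Cnot8 in footprints. Counts of Dcp1a were 3.16 and 6.57 times those of Dcp1b in RPF and 10.1 and 11.2 times in total RNA. Those of Xrn1 were 0.254 and 0.310 times those of Xrn2 in RPF and 0.412 and 0.476 times in total RNA. In each of these 3 pairs the fractions did not overlap. Cnot6 over Cnot6l and Tob1 over Tob2 shifted less (1.19-fold and 1.35-fold), and Dis3 over Dis3l overlapped between fractions. With 2 libraries against 2, the smallest p an exact two-sided permutation test can give is 0.333; the 5 pairs without overlap had that value (0.4 after Benjamini-Hochberg adjustment over 6 pairs) and Dis3 over Dis3l had 1.

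The members differed in transcript features that the choice of genes did not use. Coding share had a median of 67.2% in exosome, 51.7% in deadenylation and 52.3% in decapping genes, against 53.0% over all tested coding genes. Across the 39 members, which share the same 4 libraries and are not independent replicates, the ratio went with coding share (Spearman's rho 0.50, Pearson's r 0.57); across 12643 coding genes rho was 0.27. Within groups rho was 0.80 for decapping, 0.39 for deadenylation and -0.13 for exosome genes. Exosc4 and Exosc5, at 40.9% and 42.0% coding, had high ratios, whereas Cnot6, at 66.3%, had one of the lowest. The share of Cnot6 rests on a principal transcript of 2498 bases, while its protein-coding transcripts together hold 5736 distinct 28-base stretches. With a longer transcript of the same coding sequence its share would be lower, and its corrected ratio would differ. How far its reads came from longer transcripts was not tested. An ATG upstream of the start codon stood in the annotated 5′ leader of 12 of 15 deadenylation, 3 of 11 decapping and 6 of 13 exosome genes, against 51.2% of all tested coding genes. Cnot7 held the most, with 16 in a leader of 1173 bases, followed by Ttc37 with 10 and Cnot6 with 4. A transcript annotated as a target of nonsense-mediated decay was listed for 22 of the 39 members, against 28.5% of all tested coding genes. None of these features was tested as a cause of the ratios.

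**Figure D4:**
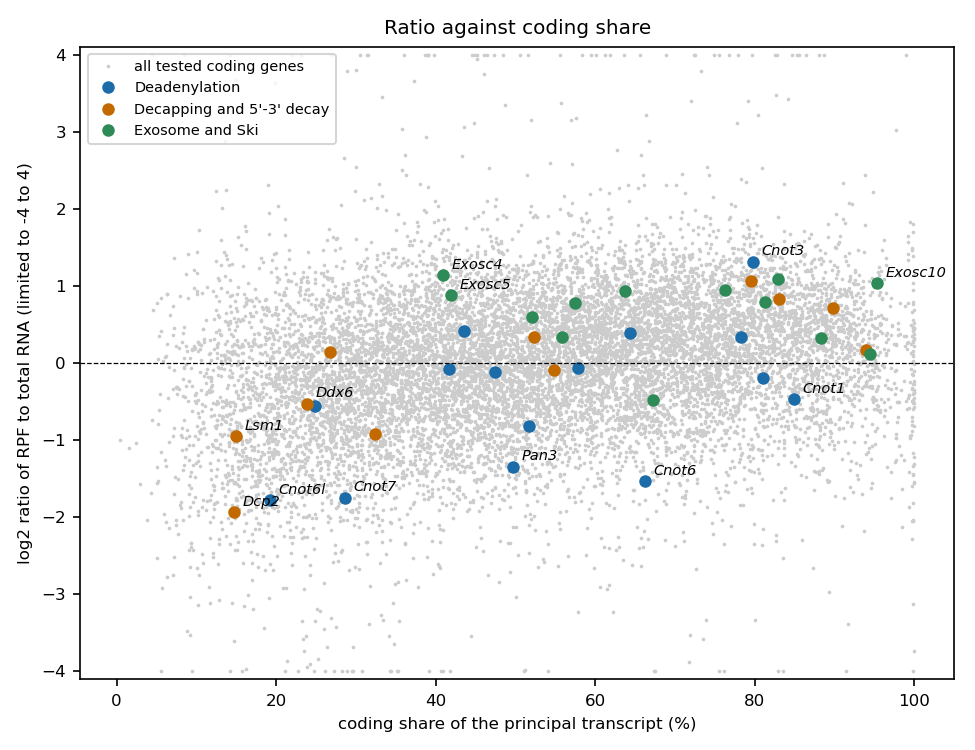
Log2 of RPF over total RNA against the coding share of the principal transcript, in percent; grey points are all tested coding genes, with ratios beyond 4 drawn at the edge, and coloured points the 39 members by group. Dcp2, Cnot6l, Cnot7 and Lsm1 lie at low coding shares and low ratios, while Exosc4 and Exosc5 lie well above 0 at shares of 40.9% and 42.0%.

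Overlap with other genes limits some values. Exons of Edc3 overlap those of Clk3 on the opposite strand over 22.1% of their length, Exosc4 those of Oplah over 19.8%, Exosc2 those of Gm13427 over 12.4% and Exosc9 those of the cyclin gene Ccna2 over 10.8%. Exons of Edc4 overlap those of Nrn1l on the same strand over 8.33%, where reads are ambiguous with any strand setting. Whether the counting used strand is not given in the sources used here, so reads from such stretches cannot be told apart. Copies elsewhere hold 13.2% of the 28-base stretches of Cnot8, 11.1% of those of Cnot1 and 8.16% of those of Ddx6. Cnot6, Cnot6l and Xrn2 share none.

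Partner genes, from lists of known cofactors, were read in the same way. Of 27 deadenylation partners 24 were tested, of which 12 were lower and 0 higher by edgeR, with a median of -0.51. The count of 0 higher was also 0 by DESeq2 and 0 by limma-voom, with 1 higher at an unadjusted p under 0.05. It was 2 after correction for coding share (Pde12 0.79, adjusted p = 0.00751; Zfp36 1.01, adjusted p = 0.0422), 3 with the replicate block and 1 without RPF replicate 2. After correction 9 were lower. Over all alternatives 7 to 15 were lower. The lower ones include Rc3h2 (-2.10 ± 0.22) and Rc3h1 (-1.64 ± 0.20), the roquins that recruit CCR4-NOT to stem-loops, Pabpc1, the cytoplasmic poly(A) binding protein (-1.21 ± 0.22), and Cnot9, a CCR4-NOT subunit (-0.73 ± 0.14, adjusted p = 0.00671; after correction -0.35, adjusted p = 0.0893). The highest at 10 CPM or more, Noct (0.37 ± 0.17, adjusted p = 0.118) and Pde12 (0.32 ± 0.15, adjusted p = 0.132), did not pass in the uncorrected fit. Of 17 tested decapping partners (18 listed) 6 were higher and 3 lower, with a median of 0.20. The higher count was 3 by DESeq2, 2 when either total RNA library was left out, and 2 with library size only, where 6 were lower and the median was -0.24. Lsm7 (1.17 ± 0.14) and Lsm6 (0.89 ± 0.14), which sit in the ring with LSM1, were highest. Nudt3, a decapping enzyme of the Nudix family (-1.08 ± 0.20; not called after correction, -0.59, adjusted p = 0.0539), and Eif4enif1, which binds the cap protein eIF4E (-0.67 ± 0.13), were lowest. Of 14 exosome partners 7 were higher and 2 lower, with a median of 0.25. The higher count was 3 without total RNA replicate 2, and 4 with library size only, where 5 were lower and the median was -0.18. Mphosph6, a nuclear cofactor (1.42 ± 0.15), and Pelo, a ribosome rescue factor (1.37 ± 0.16), were highest, and the poly(A) polymerase Tent4a (-1.13 ± 0.19) and the 3′ exonuclease Eri1 (-0.49 ± 0.13) lowest. The call of Eri1 was lost after correction (0.046, adjusted p = 0.8), by DESeq2, and without RPF replicate 1, total RNA replicate 1 or total RNA replicate 2. The adjusted p of these called genes ran from 0.000936 to 0.0219.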

How the data were processed

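Ribosome protected fragments (2 libraries) and total RNA (2 libraries) of eIF4A3 knockdown mouse embryonic stem cells were compared. The deposited values are raw read counts per gene, whole numbers in 1 table per library. The submitters' processing notes name Bowtie 1.2.3, TopHat2 2.1.1, HTSeq 0.11.2, edgeR 3.26.8 and the build mm9; the annotation release, the counted feature, the strand setting and the handling of adapters and ribosomal RNA are not stated there. The closing tallies of each table were left out of library sizes. Of all tallied reads, those with no feature made up 5.95 to 6.66% in RPF against 23.4 to 26.2% in total RNA, ambiguous reads 4.96 to 8.58% against 0.719 to 0.755%, and reads without a unique alignment 20.6 to 21.0% against 16.5 to 16.6%. Their part in the ratios was not tested.

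Gene symbols were taken by Ensembl identifier from GENCODE M21 and the supplied name tables (32621 of 37311 identifiers, 87.4%). Lengths, coding shares and start contexts came from the principal transcript in GENCODE M21 on GRCm38, a later build than that of the counts, so no coordinates are given. Exosc6 and Samd4b were not analysed here. The ratio was fitted with edgeR 4.0.16 in R 4.3.3 (TMM; filterByExpr at count 10 and total 15; quasi-likelihood test of fraction, two-sided, Benjamini-Hochberg over 13809 genes, threshold 0.05). The SE is the absolute log2 ratio divided by the square root of F. TMM factors were 0.821 and 0.902 in RPF and 1.14 and 1.18 in total RNA. Alternatives were DESeq2 1.42.0 (its size factors and its test), limma-voom (limma 3.58.1), library size only, other count filters, glmTreat against a fold of 1.5, the replicate number as a block, a loess correction for coding share (span 0.5), protein-coding genes only, and leaving out each library. Applying them to the partner lists, and leaving Cnot1 out of the range over CCR4-NOT, was added after seeing the data. No interval for a count of 0 was needed, since every measured member had counts in all 4 libraries. Depth and the 2 libraries per fraction set the precision.

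The procedure was tested on simulated data with 2 against 2 libraries and 13678 genes, of which 200 were changed: 41% of 2-fold and 93% of 4-fold changes were called, with 4 false calls among 138. In the simulation a change of 2-fold was thus often missed. Only 200 genes were changed there, whereas 41.7% of all genes tested were called in the data. The adjusted p depends on that share, so the simulated recovery may not hold for the ratios given here. The first criterion for passing, on recovery of 2-fold changes, was not met. It was replaced, after the recovery was seen, by limits on bias and on the share of false calls.

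All 40 members may be named. Counts per library were printed for the 3 highest and 3 lowest ratios of each group and for catalytic subunits, and of each partner list the 2 highest and 2 lowest ratios among tested genes at a mean of 10 CPM or more, with Cnot9 and Pabpc1. Other members' counts were added where a result turned on them, and the genes for sequence display were chosen after their ratios were seen. The members and lists were chosen with earlier results of these data known.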

Additional observations from a re-analysis of the deposited data

How the results depend on the processing

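With 2 libraries per fraction, genes that did not pass cannot be taken as unchanged, and every ratio is relative to other genes in knockdown cells. Of the 39 member ratios, all kept their direction and side of the threshold with limma-voom, no count filter and protein-coding genes only, and 38 did with DESeq2 and with its size factors. With library size only, 1223 genes were higher and 4961 lower, and 6 members were higher. Deadenylation then had 10 lower and a median of -0.62, decapping 1 higher and a median of -0.28, and exosome 4 higher and a median of 0.36. The members that changed sign were Cnot10 (-0.093), Cnot11 (-0.017), Parn (-0.038), Dcp1b (-0.10), Edc3 (-0.28), Xrn1 (-0.27), Dis3 (-0.11), Dis3l (-0.12) and Skiv2l (-0.32). Their ratios with TMM ran from 0.12 to 0.41, and this scaling moved the median of all genes to -0.46. With glmTreat, 1155 genes were higher and 1549 lower, 6 members were higher and 5 lower, decapping had 1 higher and 1 lower, and exosome had 4 higher and 0 lower. The fold threshold of that test is part of its construction.

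After correction for coding share, decapping had 2 lower. With a mean of at least 10 CPM required, its median was -0.054: Dcp1b was no longer tested and the ratios shifted down (Edc3 to 0.068, Patl1 to -0.18). With DESeq2 the exosome group had 0 lower. The replicate number as a block gave 4257 higher and 4365 lower genes, 17 members higher and 12 lower with all 23 main calls among them, and 4 higher in deadenylation. The correlation of deviations between same-numbered libraries was 0.412, but with only 2 pairs and no label of a shared source the libraries share only a number.

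Leaving out each library gave 1720 to 3341 genes higher and 1857 to 3440 lower, and 9 to 16 members higher and 7 to 11 lower. Deadenylation had 1 to 2 higher, 4 to 6 lower and medians of -0.34 to -0.11. Decapping had 1 to 3 higher, 3 to 4 lower and medians of -0.044 (without RPF replicate 1) to 0.15. Exosome had 7 to 11 higher, 0 to 1 lower and medians of 0.67 to 0.93. The ratio changed sign for Cnot2 (from -0.16 to 0.045, highest without RPF replicate 2), Patl1 (-0.21 to 0.023, highest without total RNA replicate 2) and Tob1 (-0.32 to 0.081, above 0 without RPF replicate 1 and, at 0.030, without total RNA replicate 2). It did so without RPF replicate 1 for Cnot8 (0.013, lowest value -0.15), Dcp1b (-0.054, highest 0.67), Dis3l (-0.13, highest 0.68) and Skiv2l (-0.10, highest 0.34). None of these ratios had passed with all 4 libraries. Without total RNA replicate 2, 7 members lost their call. The log2 shift of Dis3 over Dis3l ran from -0.19 (without RPF replicate 2) to 0.28, and was -0.068 without total RNA replicate 1. Where not stated otherwise, the cause was not tested.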
